A study of Mus musculus with 4 samples.

Results

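Acute-phase proteins are plasma proteins that the liver makes in larger or smaller amounts during inflammation. Interleukin-6 (IL-6) is the main signal to hepatocytes: its receptor activates the kinase JAK and the transcription factor STAT3, the C/EBP factors act with STAT3 at many acute-phase promoters, and SOCS3 switches the receptor off. Positive acute-phase proteins, such as serum amyloid A and fibrinogen, rise in this response, and negative ones, such as albumin and transthyretin, fall.

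The 38 genes described here were chosen by symbol: 30 hepatic acute-phase or related proteins, 4 regulators (Stat3, Socs3, Cebpb and Cebpd) and 4 negative acute-phase proteins (Alb, Ttr, Ahsg and Rbp4). Liver RNA came from 4 male wild-type FVB/N mice, 2 on a Se-deficient diet with no added selenite (0 Se) and 2 on a Se-adequate diet (0.1 Se, selenite added at 0.1 ppm), for 6 weeks from weaning. The libraries were depleted of ribosomal RNA and sequenced from fragmented total RNA. The values used are the authors' means over the 4 libraries, given for 7000 genes as the log2 of CPM (a gene's reads scaled to the same library total in every sample), and the length of each mRNA. Of the 38 genes, 33 were among those listed.

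The table had 0 columns for single mice, so the spread between mice and the depth of each library were not analysed here. The authors' own comparison of the diets was not used, and the difference between the diets was not analysed here. Levels are therefore a description of both diets together, without an error, and neighbours in the order of levels cannot be separated from each other by these values. A level, an order or a ratio of these means need not hold within either diet alone. To compare genes, the mean CPM was divided by the mRNA length in kilobases, and this level per kilobase is the scale used below unless a value is given in CPM. In whole liver, fewer cells of a type and less RNA per cell cannot be told apart. Of 8 hepatocyte markers, checked because the samples are labelled liver, 7 were listed, with a median of 1573 CPM per kilobase against 6.19 for all listed genes.

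Most of the listed acute-phase mRNAs were among the most abundant of the listed genes, which together held 64.8% of the aligned reads. The 29 listed acute-phase genes together held 5.81% of the aligned reads, and their median level was 187 CPM per kilobase, at percentile 96.0 of the listed genes. Of the 29, 20 lay above percentile 90 and 9 above percentile 99, where by definition 700 and 70 of the 7000 listed genes lie. The range was wide, from 11212 CPM per kilobase for Serpina3k, a serine protease inhibitor of the antichymotrypsin group, to 1.42 for Cd14, the lipopolysaccharide co-receptor of macrophages. Serpina3k alone held 31.9% of the reads of the 29 genes, and the fibrinogen genes Fga, Fgb and Fgg held 37.9%. Whether each of the 29, such as Serpina3k, rises in inflammation in mice was not tested, so these shares describe the chosen genes only. The 4 regulators together held 0.0147% of the aligned reads and had a median of 10.7 CPM per kilobase. That median depends on Cebpd, the lowest of them in CPM and over its listed length. The median was 18.9 for the regulators with at least 5 CPM, which leaves out Cebpd, and 19.5 over unique windows, for which Cebpd has no transcript.

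**Figure D1:**
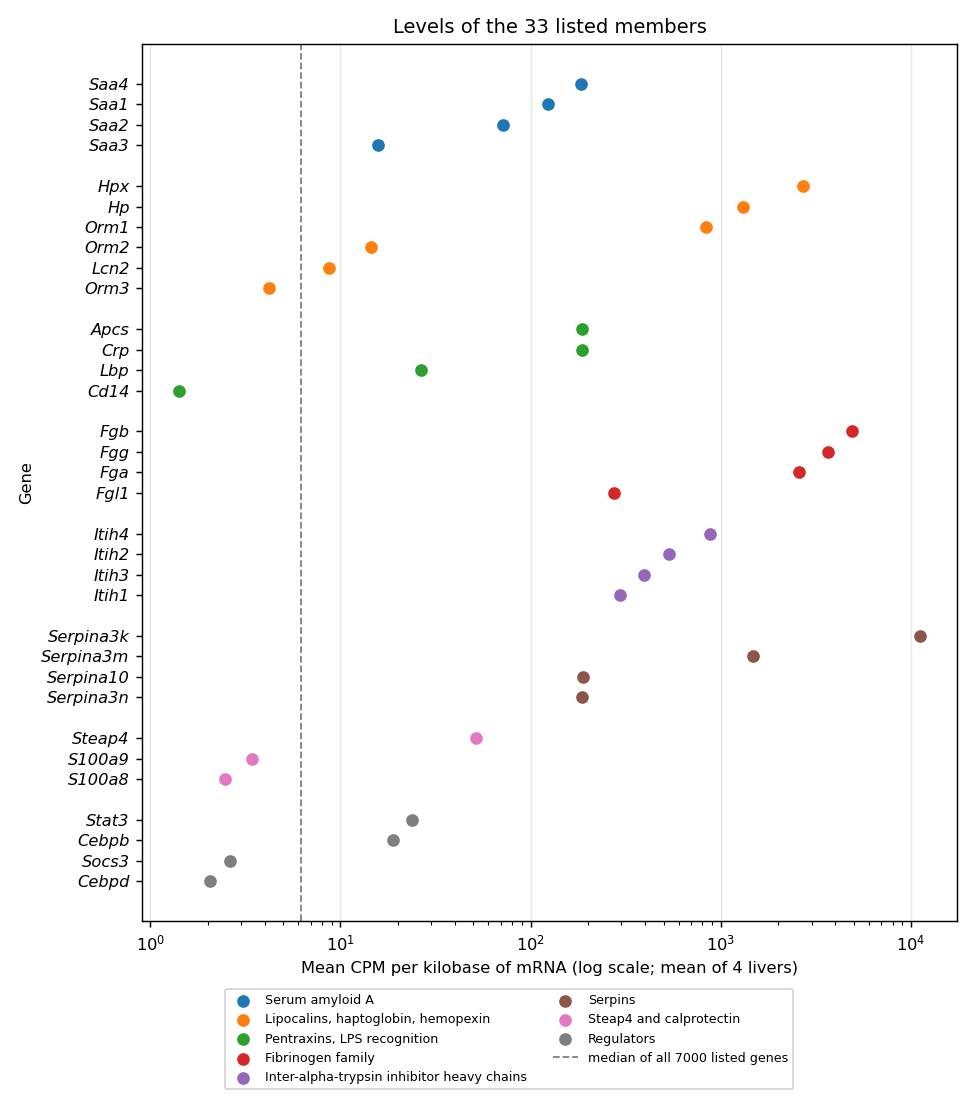
Mean CPM per kilobase of mRNA (x axis, log scale) of each of the 33 listed genes (y axis), 1 point a gene, coloured by role; each point is the authors' mean over 4 livers and the dashed line is the median of all 7000 listed genes, 6.19. Serpina3k stood farthest to the right at 11212, and 6 genes (Orm3, Cd14, S100a8, S100a9, Socs3 and Cebpd) lay left of the line.

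**Figure D2:**
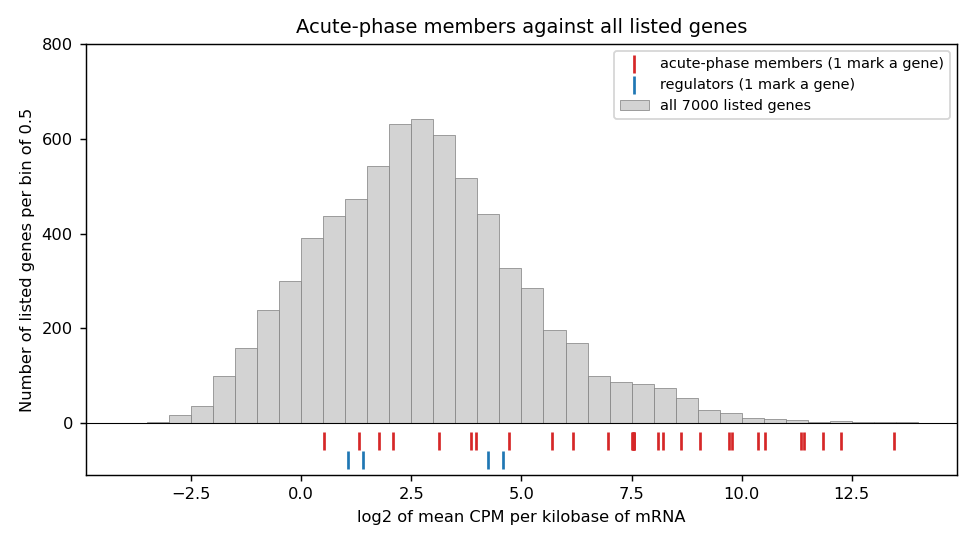
Number of listed genes (y axis) in bins of 0.5 of the log2 level per kilobase (x axis), with 1 mark below the bars for each acute-phase gene (red) and each regulator (blue). Most of the 29 acute-phase marks lay in the right tail, 20 of them above percentile 90, whereas no regulator did.

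Several of these genes are close copies of each other, and only reads with a single place in the mRNA set were counted by the authors. How much of each mRNA can give such a read was therefore computed from the annotated transcripts (GENCODE vM1, reference strain C57BL/6J), as the share of 50-base windows that occur in no other gene with up to 2 mismatches. Of the 32 listed members with a transcript there, 18 had only unique windows and 23 had more than 95% of them. The other 9 belong to the serum amyloid A, orosomucoid and Serpina3 families, all of which lie in gene clusters. The share was 51.4% in Serpina3m, 58.4% in Orm2, 59.0% in Saa1, 59.2% in Serpina3k, 62.3% in Orm1, 67.0% in Saa2, 72.8% in Serpina3n, 83.1% in Orm3 and 89.0% in Saa3.

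**Figure D3:**
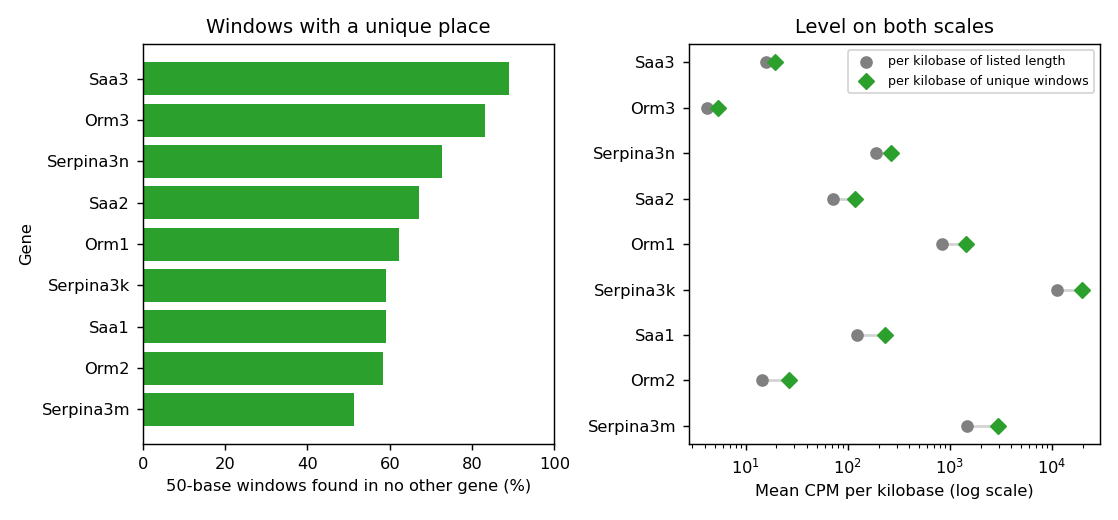
Left, share of 50-base windows found in no other gene (x axis, %) for the 9 members below 95%; right, their mean CPM per kilobase (log scale) over the listed length (grey circles) and over the unique windows (green diamonds). The level of Serpina3m, with 51.4% unique windows, moved from 1476 to 2962, and the order of the genes within each family stayed the same among these 9.

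The coding sequences of Saa1 and Saa2 differ at 18 of 369 bases (95.1% identity). They are shown because 185 of the 556 windows of the Saa1 mRNA were shared with Saa2, so the values of this pair rest on their distinct stretches. The 60 bases of coding sequence with the most differences are bases 90 to 149, counted from the A of the start codon, and capitals mark the differing bases:
Saa1: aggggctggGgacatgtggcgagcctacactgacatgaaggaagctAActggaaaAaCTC
Saa2: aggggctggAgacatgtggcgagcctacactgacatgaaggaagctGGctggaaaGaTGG
The start of the coding sequence, bases 1 to 60, is the same in both genes, and a 50-base read from within it has no unique place:
Saa1 and Saa2: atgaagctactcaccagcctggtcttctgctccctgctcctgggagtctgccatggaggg

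Orm1 and Orm2 differ at 63 of 624 bases (89.9% identity), and 274 of the 726 windows of Orm1 were shared with Orm2. Bases 138 to 197 of their coding sequences hold 17 of the differences, in capitals:
Orm1: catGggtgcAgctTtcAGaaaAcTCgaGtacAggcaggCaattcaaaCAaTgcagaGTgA
Orm2: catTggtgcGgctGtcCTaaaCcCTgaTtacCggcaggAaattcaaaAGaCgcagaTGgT

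The serum amyloid A genes encode apolipoproteins of high-density lipoprotein, of which Saa1 and Saa2 are the inducible liver forms, Saa3 is made mainly outside hepatocytes and Saa4 is constitutive. They lie on chromosome 7 (NCBIM37, the assembly of mm9) between 53967368 and 54009684, with Saa1 from 53995871 to 53998350 and Saa2 from 54007203 to 54009684. Saa4 had a mean of 373 CPM, Saa1 75.2 CPM, Saa2 43.7 CPM and Saa3 8.32 CPM. Per kilobase, Saa4 (184) remained above Saa1 (124), but over the unique windows Saa1 (229) was above Saa4 (195). Both orders are those of the mean over the diets, and the order within each diet was not analysed here. Saa1 was 1.73 times Saa2 per kilobase and 1.97 times over the unique windows. The 4 genes held 0.862% of the reads of the acute-phase genes.

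Lipocalins and the carriers of haemoglobin and haem covered the widest range of any role, 644-fold. Hemopexin (Hpx), which binds free haem, reached 4012 CPM and 2711 CPM per kilobase, and haptoglobin (Hp), which binds free haemoglobin, 1768 CPM and 1314 per kilobase. Lcn2, the siderophore-binding lipocalin 2, stood at 7.41 CPM and 8.68 per kilobase. The orosomucoids, plasma lipocalins that bind drugs and lipids, lie side by side on chromosome 4 (63005594 to 63026912), with gaps of 8.0 kb between Orm1 and Orm3 and 2.9 kb between Orm3 and Orm2. Orm1 had 645 CPM, Orm2 11.2 CPM and Orm3 3.26 CPM. Orm1 was thus 58.1 times Orm2 per kilobase and 54.1 times over the unique windows.

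The pentraxins Apcs (serum amyloid P, the main acute-phase pentraxin of mice) and Crp (C-reactive protein) are both on chromosome 1, 194.0 kb apart. Apcs had 184 CPM and Crp 315 CPM, but per kilobase they stood at 187 and 186. Lbp, the plasma protein that hands lipopolysaccharide to CD14, had 66.9 CPM and 26.5 per kilobase. Cd14 itself had 2.13 CPM and 1.42 per kilobase, at percentile 17.9.

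Fibrinogen is a hexamer of 3 chains, encoded by Fga, Fgb and Fgg in a cluster on chromosome 3 from 82811781 to 82853725. Fga had 8704 CPM (rank 5 of all listed genes), Fgb 7700 CPM (rank 10) and Fgg 5585 CPM (rank 18). Per kilobase the order was Fgb (4895), Fgg (3667) and Fga (2591). The place of Fga depends on its length: the listed mRNA has 3360 bases and the annotated coding transcript nearest in length 2637. With the latter, Fga was at 3363 CPM per kilobase of unique windows and Fgg at 3686, and the 3 chains lay within 1.44-fold of each other. The CPM of Fga was counted on the authors' mRNA, so any reads from bases outside the shorter transcript are still in 3363. How close the chains were thus depends on the length taken. Fgl1 (fibrinogen-like 1, a hepatokine) is on chromosome 8 and had 309 CPM and 276 per kilobase, 17.8 times lower than Fgb.

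The inter-alpha-trypsin inhibitor family, of which the heavy chains Itih1, Itih2 and Itih3 can be linked to hyaluronan and Itih4 lacks the linking site, was the most even of the acute-phase roles, with 2.95-fold between the highest and the lowest. Itih4 had 874 CPM per kilobase, Itih2 535, Itih3 396 and Itih1 296, and all lay above percentile 97. Itih4, Itih3 and Itih1 lie within 6.6 kb of their neighbour on chromosome 14, whereas Itih2 is on chromosome 2.

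The Serpina3 genes, which multiplied in the mouse and of which the human genome has a single antichymotrypsin gene, lie on chromosome 12 with Serpina3k from 105576696 to 105583951, Serpina3m from 105625374 to 105632467 and Serpina3n from 105644939 to 105652539. Serpina3k had 18522 CPM, rank 3 of all listed genes, Serpina3m 2449 CPM and Serpina3n 391 CPM. Serpina3k was 7.59 times Serpina3m per kilobase and 6.58 times over the unique windows, and 59.9 and 73.2 times Serpina3n. The coding sequences of Serpina3k and Serpina3m have 91.7% identity and share a run of 154 identical bases, and 569 windows of each were shared with the other. Serpina10, the inhibitor of coagulation factors Xa and XIa that acts with protein Z, had 297 CPM and 189 per kilobase. A2m, alpha-2-macroglobulin, was not among the listed genes.

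Steap4, a metalloreductase of iron and copper, had 163 CPM and 51.9 per kilobase. The subunits of calprotectin, a neutrophil and monocyte protein, had low mean CPM, 0.970 for S100a8 and 1.66 for S100a9. Per kilobase, S100a8 (2.48) was at percentile 28.3 and S100a9 (3.41) at percentile 35.1, both above Cd14 and, over its listed length, Cebpd. None of 10 neutrophil markers and none of 7 lymphocyte markers were listed. Which genes were listed depended on the authors' comparison, so this does not show that those cells were few, and the hepatocyte marker Cps1 was not listed either. Of 11 Kupffer cell marker symbols 10 were listed (the other, Adgre1, is a newer name of the listed Emr1), at a median of 35.0 CPM per kilobase. The cell type from which the reads of S100a8, S100a9 and Cd14 came was not tested.

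Among the regulators, Stat3, the transcription factor activated by the IL-6 receptor, had 107 CPM and 23.9 per kilobase. Cebpb had 28.4 CPM and 18.9 per kilobase, and Cebpd 4.68 CPM and 2.07 per kilobase. Cebpb was thus 9.10 times Cebpd over the listed lengths and 6.06 times in CPM. The listed length of Cebpd is 2260 bases, but its annotated gene spans only 15887379 to 15888559 on chromosome 16, which is shorter. The level of Cebpd per kilobase, and its place below Socs3, depend on the length taken. Socs3, the feedback inhibitor, had 7.16 CPM and 2.63 per kilobase, 9.09 times below Stat3. Stat3 and Cebpb lay above the median of all listed genes and Socs3 and Cebpd below it, at percentiles 29.4 and 24.9.

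The other genes of the pathway were taken from lists. Of 4 receptors of the IL-6 family 2 were listed, the shared signal transducer Il6st at 51.5 CPM per kilobase and the IL-6 receptor Il6ra at 6.12, and Osmr and Lifr were not. Of 8 further JAK and STAT genes 6 were listed, with Stat5a the lowest at 1.81. Of 10 further inhibitors 5 were listed, all below the median of the listed genes, from Socs2 at 5.93 to Pias3 at 1.08. Of 8 genes for the IL-1 and TNF receptors and their adaptors 5 were listed, from Tnfrsf1a at 13.0 to the receptor antagonist Il1rn at 0.579. Of 6 NF-kB genes Rela (8.51) and Nfkbiz (2.51) were listed. Of 9 hepatocyte transcription factors 8 were listed, from Cebpa at 101, the highest of all the transcription factors named here, to Foxa1 at 2.28.

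None of the 4 negative acute-phase proteins Alb, Ttr, Ahsg and Rbp4 was among the listed genes, so no level can be given for albumin, transthyretin, fetuin A and retinol binding protein. Which genes were listed depended on the authors' comparison and not on their level alone, so absence from the list says nothing of how abundant an mRNA was. Of 8 other liver proteins described as falling in inflammation 7 were listed, from transferrin (Trf) at 8801 CPM per kilobase to Cyp7a1, the rate-limiting enzyme of bile acid synthesis, at 30.9, with a median of 918. Of 16 other genes put on a list of positive acute-phase genes 13 were listed, with Pzp the highest at 1685 and a median of 371. Whether each gene of that list, such as Pzp or Mug1, rises in inflammation in mice was not tested.

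**Figure D4:**
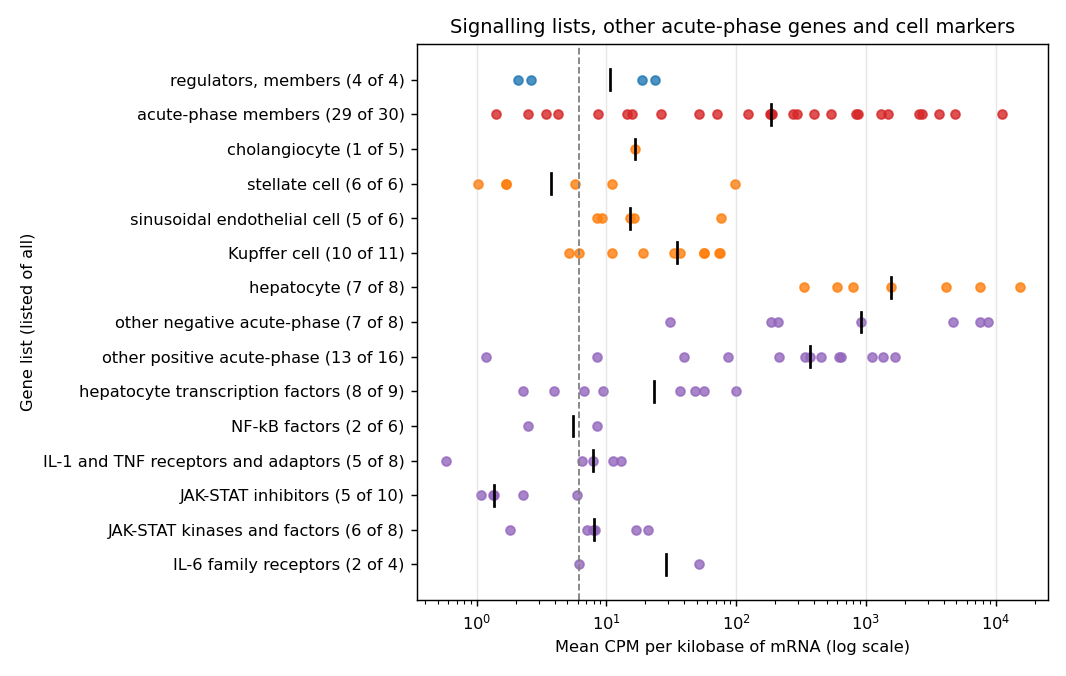
Mean CPM per kilobase (x axis, log scale) of the listed genes of each list (y axis, with the number listed of all its symbols), 1 point a gene; purple, pathway lists; orange, cell type markers; red and blue, the acute-phase genes and regulators described here; black bars, medians; dashed line, median of all listed genes. The median of the acute-phase genes, 187, lay between those of the Kupffer cell markers, 35.0, and the hepatocyte markers, 1573.

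The promoters were searched for short motifs, since many acute-phase genes are known targets of STAT3 and C/EBP factors. RefSeq windows (GRCm38.p6) from 250 bases before to 50 after a start were given for 24 of the 33 listed members, 1 window each. Serpina3k, Serpina3m, Orm1 and Hp were among those without one. TTGCNNAA, a C/EBP core, occurred on either strand in 13 of the 24 windows (54.2%) and in 10.8% of all 32851 windows, and TTCNNNGAA, the palindromic STAT element, in 6 (25%) and in 8.30%. GGGNNTTCC, 1 form of an NF-kB core, was in 2 (8.33%) and 5.82%, and TTAATNATT, 1 form of an HNF1 core, in 0 and in 1.47%. These letters miss other forms of both sites, with other spacing or other letters, so both counts cover only the letters given. The 0 for TTAATNATT therefore does not show that HNF1 sites are lacking. The windows are placed by RefSeq's start, and those of Fgb, Fgg, Saa4 and Socs3 do not hold the first 20 bases of the GENCODE transcript, so their positions are not counted from its start. Without these 4 windows, a choice made after seeing the data, the C/EBP core was in 11 of 20 (55%), the STAT element in 4 (20%), the NF-kB core in 1 (5%) and the HNF1 core in 0. The windows of Saa1, Saa2 and Saa3 held the C/EBP core, as did that of Saa4. Windows of gene copies are not independent of each other, though each was counted. Saa1 and Saa2 held the same TTGCACAA at -182 and -183 from RefSeq's start. Orm2 held TTGCGCAA at -120 and Orm3 TTGCACAA at -121. These matches are descriptions of the letters in the window and not of binding.

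Fga, Fgb and Steap4 were the listed members whose window held both the C/EBP core and the STAT element. Their 250 bases before RefSeq's start are shown, 5′ to 3′ on the strand of the gene, with every motif match in capitals. In Fga (GRCm38.p6, chr3:83025903-83026152, plus strand) the STAT element begins at position -234 from the start and the C/EBP core at -135. In Fgb (chr3:83049864-83050113, minus strand), whose window lacks the start of the GENCODE transcript, the STAT element at -162 overlaps an NF-kB core at -157, and the C/EBP core is at -80. In Steap4 (chr5:7960222-7960471, plus strand) the NF-kB core is at -226, the STAT element at -116 and the C/EBP core at -87:
Fga: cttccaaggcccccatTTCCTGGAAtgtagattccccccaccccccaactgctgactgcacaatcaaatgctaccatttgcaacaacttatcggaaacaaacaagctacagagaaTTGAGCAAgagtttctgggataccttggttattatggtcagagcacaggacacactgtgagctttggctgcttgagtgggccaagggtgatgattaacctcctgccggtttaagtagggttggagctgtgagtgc
Fgb: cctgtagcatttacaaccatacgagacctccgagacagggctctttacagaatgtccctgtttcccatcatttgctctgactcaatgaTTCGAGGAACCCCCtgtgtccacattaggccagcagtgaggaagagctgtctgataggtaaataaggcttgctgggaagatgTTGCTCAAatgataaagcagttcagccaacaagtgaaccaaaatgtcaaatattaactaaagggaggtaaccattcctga
Steap4: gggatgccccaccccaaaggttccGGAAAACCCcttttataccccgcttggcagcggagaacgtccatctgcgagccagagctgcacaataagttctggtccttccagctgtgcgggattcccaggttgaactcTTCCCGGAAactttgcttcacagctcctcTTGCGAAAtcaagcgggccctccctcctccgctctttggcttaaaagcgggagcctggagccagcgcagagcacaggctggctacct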

How the data were processed

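Total RNA of the livers was depleted of ribosomal RNA and sequenced as 50-cycle single-end reads from stranded libraries. Per the authors, Bowtie placed them on mm9 RefSeq mRNAs (the longest isoform of a gene), and reads with a single place and no more than 2 mismatches were counted. The authors' deposited table comes from edgeR, run on genes that passed 1 CPM in 3 or more libraries. Its log2 mean CPM over the 4 libraries was made by the authors with edgeR and used as deposited, as was the mRNA length. Low means may carry a prior count. The authors' edgeR version, test and normalization were not given in the sources read. The remaining columns hold the authors' own comparison of the diets (log2 fold change, p-value and FDR) and were not used, except that the p-values were read to check the row order. The rows stand in order of increasing p-value, so which genes are listed depends on that comparison. With 0 columns for single mice, no test, standard deviation or depth could be computed. The labels give 2 groups of 2 mice.

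Mean CPM was taken as 2 to the power of the log2 value, divided by length in kilobases, and ranked among the 7000 listed genes. A share of reads is the mean CPM as a percentage of the CPM total. Coordinates and transcripts come from GENCODE vM1 on NCBIM37, the assembly of mm9; of the listed members, 31 have a coding transcript within 10% of the listed length. For each member the transcript nearest in length was cut into windows of 50 bases, which were compared on both strands with 1 transcript for each of 20184 genes named in RefSeq. The search found the known number of shared windows in 5 of 5 simulated cases. Coding sequences were aligned globally with Biopython 1.88. All 38 members are named, and from each pathway list the highest and the lowest listed gene, of which some are not reported here. The members, lists and motifs were chosen with earlier results of these data known. The NF-kB and HNF1 letters were changed to shorter ones after a first promoter search with longer forms. That search had found the NF-kB motif in Serpina3n and Steap4 and the HNF1 motif in no listed member. The shorter NF-kB letters matched in Fgb and Steap4 but not in Serpina3n, so they are not merely a looser version of the longer ones. Python 3.11.15, numpy 2.4.6, pandas 2.3.3 and matplotlib 3.10.9 were used.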

Additional observations from a re-analysis of the deposited data

How the results depend on the processing

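The median level of the acute-phase genes, 187 CPM per kilobase, was 229 over unique windows, 276 for genes with at least 5 CPM, and 315 as CPM with no division by length. Their median percentile of 96.0 was 96.4 among genes with at least 5 CPM and stayed at 96.0 without division by length. The median level of the regulators, 10.7, was 19.5 over unique windows, where Cebpd has no coding transcript and drops out, 18.9 for genes with at least 5 CPM, which leaves out Cebpd as well, and 17.8 as CPM. Their median percentile of 52.6 was 69.6 among genes with at least 5 CPM and 44.2 without division by length. Over unique windows the largest move in the order of the members was 5 places, by Serpina10. Other symbols of the same genes found none of the 5 members that were not listed, so both medians kept their values, and the negative acute-phase genes gave no median under any setting. Leaving out each mouse in turn was not run, and no paired analysis was possible because the table has no value for a single mouse. The depth of the libraries is unknown here, so no interval can be given for the lowest levels, such as those of S100a8 and Cd14.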

Other observations

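Some genes on the list of other positive acute-phase genes, outside the 38 members, held some of the highest levels of the listed genes. The genes named in this paragraph were picked after their values were seen, and their response to inflammation was not tested. Complement C3, the central component of the cascade, had 6939 CPM, Pzp, a broad protease inhibitor of plasma, 7885 CPM, and Mug1, a murinoglobulin of the same family, 5217 CPM. Ceruloplasmin (Cp), the copper carrier, had 2049 CPM and complement factor B (Cfb) 1774 CPM. The metallothioneins, small metal-binding proteins, were lower, Mt1 with 21.4 CPM and Mt2 with 4.70 CPM. C3, Pzp, Mug1 and Cfb were above percentile 99 per kilobase.

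Some symbols of this gene set are also older names of another gene. The RefSeq gene table gives A2m as an older symbol of Pzp and Saa2 as an older symbol of Saa1. Pzp was listed with a length of 4681 bases and A2m was not listed, and no value of Pzp was used for A2m. Saa1 was listed with 607 bases and Saa2 with 610, where the annotated transcripts have 605 and 610 bases, respectively.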
